A study of Bos taurus with 47 samples.

Results

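Liver and kidney of the same 4 Holstein cattle were compared by RNA sequencing of whole tissue. The comparison rests on 8 of the 47 libraries of the study, 4 of liver and 4 of kidney, chosen by their tissue label and paired by animal number. The animals are called male A (libraries LIVE3770 and KIDN3770), male B (LIVE3773 and KIDN3773), the lactating cow (LIVE3842 and KIDN3842) and the dry cow (LIVE3886 and KIDN3886) here. The cows are named after the mammary gland samples they also gave. The labels used here name no treatment, age, feeding state or region of the organ, and each animal gave 1 library per organ. The remaining 39 libraries carry 13 other tissue labels and serve here to show where else a gene was expressed.

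The liver takes up nutrients from the gut, makes most of the proteins of blood plasma, forms bile acids and turns ammonia into urea. In ruminants it also makes much of the animal's glucose, largely from propionate formed in the rumen. The kidney filters the blood and its tubules take back salts, glucose, amino acids and water, and it too can make glucose. Both organs therefore share metabolic pathways while each has secretory or transport functions of its own.

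Levels are FPKM (fragments per kilobase of transcript per 1000000 fragments), which can be compared between genes because they are per length. Differences are given as liver minus kidney on the log2(FPKM + 1) scale, so that 1 is about a 2-fold change for a well expressed gene, and less than the true change for a low one. Of 24616 gene identifiers, 18061 were above 0 in at least 1 of the 8 libraries and 13289 reached 1 FPKM in at least 2 of them and were tested. The deposited table gives identifiers without gene names and none could be matched to a name, so the labelled organs were not checked against marker genes and genes are described by identifier, rank or tissue pattern. Summed FPKM per library ran from 633328 to 690834, and relative depth, read from the size of 1 fragment in low values, from 0.750 (kidney of the lactating cow) to 1.26 (liver of male A) times the median of the 8 libraries. Rank correlations across genes were 0.969 to 0.982 between livers, 0.971 to 0.982 between kidneys and 0.671 to 0.701 between a liver and a kidney; genes are not independent replicates.

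On the deposited scale most genes were lower in liver than in kidney, while the liver's own genes reached far higher levels. With an adjusted p under 0.05 in limma (animal as a block, Benjamini-Hochberg over all genes tested) and a difference of at least 1, 1100 genes (8.28% of those tested) were higher in liver and 5414 (40.7%) were higher in kidney. The median difference of all genes was -0.85, and 81.6% of genes had a negative difference. In whole tissue, fewer cells of a type and less RNA per cell cannot be told apart.

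The number of genes called in each direction depended on how the libraries were scaled. After quantile normalization 1911 genes were higher in liver and 2027 in kidney, with a median difference of -0.11. After division of each library by its median ratio to the geometric mean over 9810 genes, the counts were 2003 and 1899, with a median difference of -0.08, and 54.4% of genes had a negative difference. The share of called genes that were higher in liver was 16.9% as deposited, 48.5% after quantile normalization and 51.3% after median-ratio scaling. No gene was called in opposite directions on any pair of these scalings.

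Genes called on the deposited, quantile and median-ratio scales alike numbered 1097 higher in liver (8.25% of those tested) and 1784 higher in kidney (13.4%). These 2 sets are used below. They kept 99.7% of the liver genes and 33.0% of the kidney genes called on the deposited scale. Because a liver gene had to pass on the deposited scale, where the median gene sits below 0, and a kidney gene was limited by the centred scales, the sizes of the sets do not show which organ had more genes of its own. The 4 liver values did not overlap the 4 kidney values in 1056 of the 1097 liver genes and 1780 of the 1784 kidney genes. Since the sets were called on these same libraries, little overlap follows from the choice and adds no support. A difference of at least 1 in each of the 4 animals was found for 784 liver genes and 1748 kidney genes of the sets. These counts are on the deposited scale, where a kidney gene had to differ by more in order to pass on the centred scales. They therefore cannot be compared between the organs.

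**Figure D1:**
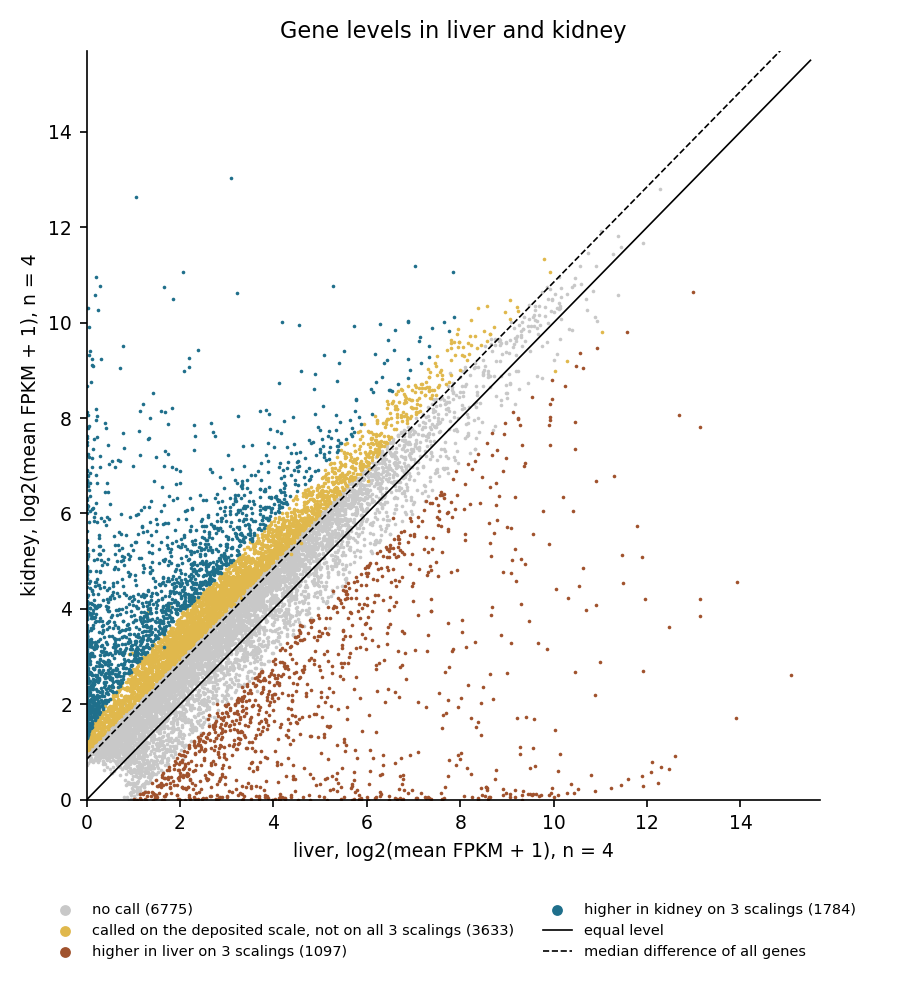
Mean level of each of the 13289 tested genes in liver (x axis) and kidney (y axis), both as log2(mean FPKM + 1) over 4 libraries. The dashed line marks the median difference of all genes, which lies above the line of equal level; brown points are the 1097 genes higher in liver and blue points the 1784 genes higher in kidney on 3 scalings.

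Large differences were found on both sides, and on the log2(FPKM + 1) scale the very largest lay mostly on the liver side. At least 16-fold differences on the log2(FPKM + 1) scale were seen for 257 liver genes and 270 kidney genes. Differences of at least 256-fold were seen for 70 liver genes and 23 kidney genes. The median size in the sets, on the deposited scale, was 2.02 for liver genes and 2.48 for kidney genes. Over all genes called on that scale it was 2.02 and 1.47, since the demand for 3 scalings left 380 of the 4010 kidney genes of 2-fold to 4-fold difference and 540 of the 543 such liver genes. The median gene of the liver set stood at 27.7 FPKM in liver and 2.28 in kidney, and the median gene of the kidney set at 19.1 FPKM in kidney and 1.31 in liver.

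The gene with the largest difference in favour of liver was ENSBTAG00000017121, also the most abundant gene of the liver. Its liver levels in male A, male B, the lactating cow and the dry cow were 36203, 30765, 37096 and 34196 FPKM. Its kidney levels in the same order were 5.55, 7.30, 1.38 and 6.34 FPKM. The livers lay close together, the groups were far apart, and the kidney of the lactating cow was the lowest library. The difference was 12.60 ± 0.29 (SE, adjusted p = 1.561e-09 by limma). Among the 13 other labels the highest mean was 16.3 FPKM, in muscle.

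ENSBTAG00000009212 came next, with liver levels of 15633, 11985, 20263 and 13292 FPKM in the same animal order. In kidney it stood at 1.60, 3.28, 0.534 and 3.70 FPKM. The lactating cow was the highest of the livers and the lowest of the kidneys again, and the groups did not overlap. The difference was 12.29 ± 0.33 (SE, adjusted p = 4.478e-09 by limma). Its highest level in another label was 83.8 FPKM, in lung. With 0.1 in place of 1 added to FPKM, the differences of ENSBTAG00000017121 and ENSBTAG00000009212 were 12.91 and 12.92.

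On the kidney side ENSBTAG00000009828 led, with kidney levels of 6206, 6884, 6198 and 6036 FPKM in male A, male B, the lactating cow and the dry cow. In liver it stood at 0.259, 1.64, 1.39 and 0.982 FPKM. The kidneys differed little among themselves and every liver was below 2 FPKM. The difference was -11.63 ± 0.16 (SE, adjusted p = 1.35e-10 by limma). No other label exceeded 9.80 FPKM, the mean in ovary.

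ENSBTAG00000033326 followed with kidney levels of 1450, 2051, 2456 and 1981 FPKM. In liver it was listed at 0 in male A and the dry cow and stood at 0.419 in male B and 0.209 in the lactating cow. The difference was -10.74 ± 0.13 (SE, adjusted p = 7.799e-11 by limma). Unlike the other leading kidney gene it was not limited to kidney, since ileum had a mean of 1054 FPKM.

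**Figure D2:**
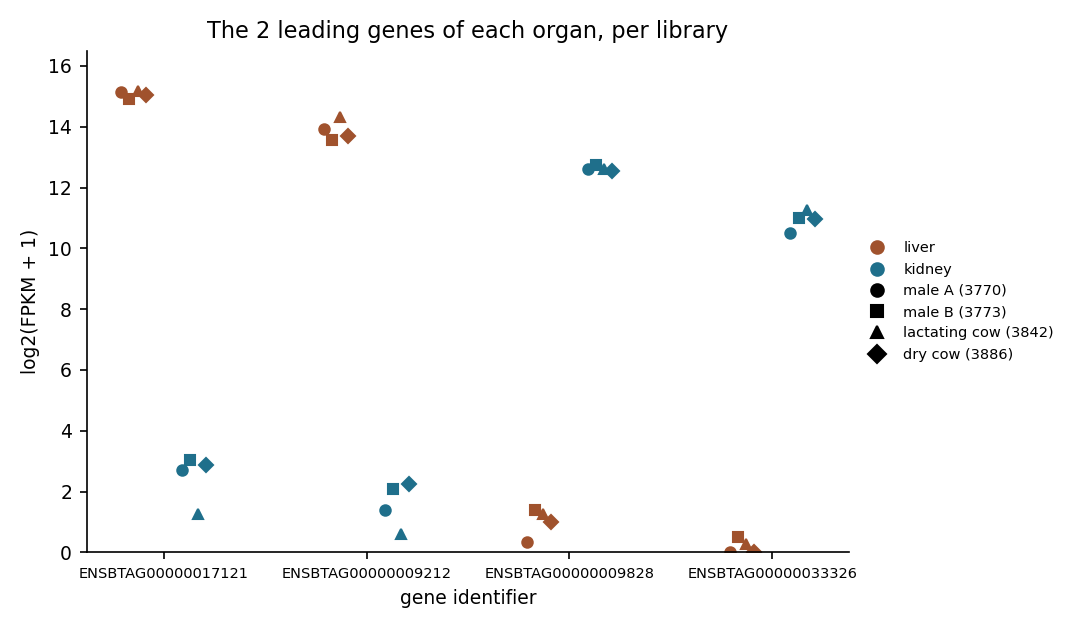
Level of the leading pair of genes of each organ in each library, as log2(FPKM + 1); colour gives the organ and the marker shape the animal. Each gene has 4 points at the top and 4 points near the bottom, and the lactating cow (triangles) is the lowest kidney for both liver genes.

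The 10 leading genes of each direction were all far apart between the organs. Liver means of the 10 liver genes ran from 3794 to 34565 FPKM, with differences of 11.32 to 12.60, and no kidney library exceeded 7.30 FPKM. Kidney means of the 10 kidney genes ran from 641 to 8320 FPKM, with differences of -11.63 to -9.23, and no liver library exceeded 10.8 FPKM. The largest adjusted p among them was 4.478e-09 for liver and 6.474e-10 for kidney (limma). Of the liver genes, 5 of 10 were listed at 0 in at least 1 kidney library, and of the kidney genes 8 of 10 in at least 1 liver library.

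Most of the leading liver genes stood far above every other label in ratio, and fewer of the kidney genes did so. The leading liver genes were also more abundant, and a given ratio is easier to reach from a higher level. The liver gene of rank 2 passed the ratio used here with 83.8 FPKM in lung. For 9 of 10 liver genes the liver mean was more than 100 times that of every other label outside kidney, the exception being the gene of rank 5, with 396.4 FPKM in ovary. Among the kidney genes this held for 6 of 10. The others were the gene of rank 2 in ileum (1054 FPKM), rank 3 in frontal cortex (116.8 FPKM), rank 4 in lactating mammary gland (17.1 FPKM) and rank 7 in adipose tissue (308.0 FPKM).

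The most abundant genes of the 2 organs differed in kind. All 5 most abundant liver genes had kidney means of 2.28 to 22.5 FPKM. In kidney, the genes of abundance rank 1 and 3 had liver means of 7.48 and 1.07 FPKM. The kidney genes of rank 2, 4 and 5 were also abundant in liver, at 4991 ± 777, 2054 ± 219 and 2676 ± 280 FPKM (SD, n = 4) against 7124 ± 700, 3858 ± 333 and 3620 ± 746 FPKM in kidney. None of these was called in either direction. Their differences of -0.52, -0.91 and -0.42 on the deposited scale became 0.42, 0.03 and 0.52 after median-ratio scaling, so that no direction can be given for them.

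Liver RNA was concentrated in fewer genes. The 10 most abundant genes held 18.25, 16.98, 18.99 and 17.58% of summed FPKM in the livers of male A, male B, the lactating cow and the dry cow, and 6.06, 6.80, 7.11 and 7.17% in their kidneys. Every liver stood above every kidney by more than the range within either organ. The means were 17.95 ± 0.866% in liver and 6.78 ± 0.509% in kidney (SD, n = 4). With 4 against 4 libraries the exact permutation test, two-sided and without pairing, gave p = 0.02857, the smallest it allows, and p = 0.03809 after Benjamini-Hochberg adjustment over 4 measures. With 4 pairs the two-sided exact sign-flip test gave p = 0.13, the smallest it allows.

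The same held for the number of genes that made up 50% of the summed FPKM. It was 136, 159, 130 and 133 genes in the 4 livers and 475, 462, 392 and 389 genes in the kidneys, or 139.5 ± 13.2 against 429.5 ± 45.4 (SD, n = 4). Genes of at least 1 FPKM numbered 10903 to 11390 in livers and 12294 to 12580 in kidneys. Both measures gave the same exact permutation p of 0.02857 (adjusted 0.03809). Genes of at least 1000 FPKM numbered 102.5 ± 7.55 in liver and 86.75 ± 12.5 in kidney (SD, n = 4). The ranges overlapped (exact permutation p = 0.1143, without pairing). Within animals, however, liver was higher in all 4, with 100, 94, 112 and 104 genes against 75, 77, 96 and 99 in kidney. The paired sign-flip test gave all 4 measures the same p, the smallest it allows, so it does not set this measure apart. These gene numbers are on the deposited scale, on which the median gene was lower in liver.

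**Figure D3:**
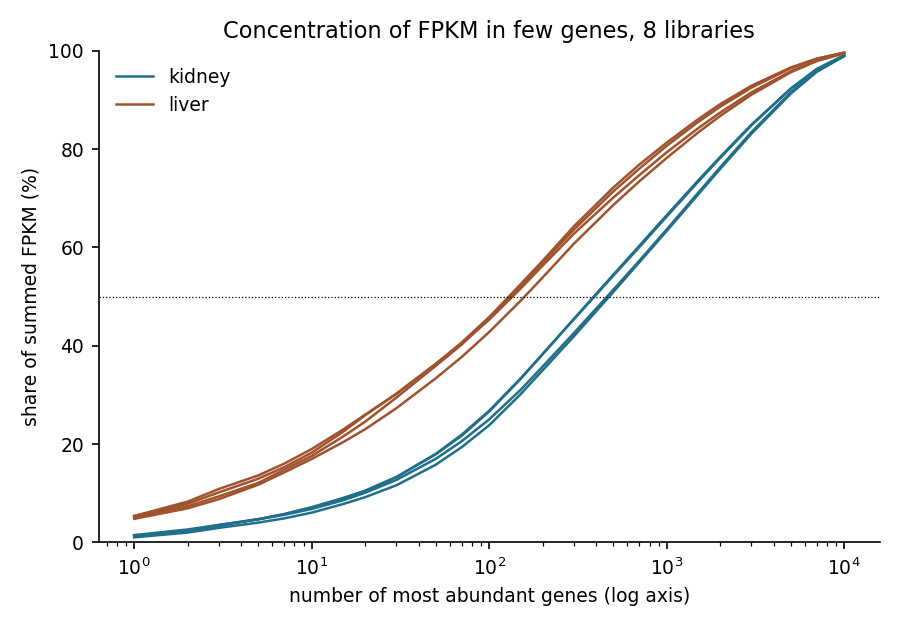
Cumulative share of summed FPKM (y axis, percent) held by the most abundant genes (x axis, number of genes on a log axis), 1 line per library. The 4 liver lines cross the dotted 50% line at 130 to 159 genes and the 4 kidney lines at 389 to 475 genes.

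The leading genes were largely shared between animals but not between organs. Of the 10 most abundant genes, 7 were common to all 4 livers and 7 to all 4 kidneys, while none of the 10 highest by organ mean was shared. Of the 50 most abundant, 11 were shared between organs. The 1097 liver genes held 50.3 ± 1.22% of summed FPKM in liver and 3.38 ± 0.142% in kidney (SD, n = 4). The 1784 kidney genes held 21.2 ± 0.797% in kidney and 1.66 ± 0.115% in liver. Since the sets were chosen on these libraries, these shares describe them and test nothing. A mean of at least 1000 FPKM over both organs was reached by 87 genes. Of these, 33 (37.9%) were in the liver set and 5 (5.75%) in the kidney set. Of the 991 genes of 100 to 1000 FPKM, 200 (20.2%) and 131 (13.2%) were. Over all tested genes the shares were 8.25% and 13.4%. A gene very high in 1 organ can enter these groups through that organ alone. The median difference of the 87 genes was 0.07, -0.39 and 1.01 on the deposited, quantile and median-ratio scales, so its sign depended on the scaling.

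Some genes were present in one organ and close to absent in the other. FPKM of at least 10 in all 4 livers and under 1 in all 4 kidneys were found for 155 genes, and the reverse for 210 genes. All 155 and all 210 were in the liver and kidney sets. The liver-restricted genes were the more abundant, with a median of 103.1 FPKM, 79 genes of at least 100 FPKM and 9.21 ± 0.957% of summed FPKM in liver (SD, n = 4). The kidney-restricted genes had a median of 34.5 FPKM, 54 genes of at least 100 FPKM and 3.90 ± 0.20% of summed FPKM in kidney. In all 4 libraries of the other organ, 14 of the liver-restricted and 35 of the kidney-restricted genes were listed at 0. Of the liver genes, 2 had their lowest liver library between 10 and 11 FPKM and 4 missed the group by a lowest library of 9 to 10 FPKM; for kidney these numbers were 8 and 18.

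The 2 groups differed in how far other tissues shared them. Of the 155 liver-restricted genes, 62 were under 1 FPKM in all 13 other labels, 54 reached 10 FPKM in another label and 22 had another label at least as high as liver. Of the 210 kidney-restricted genes, 21 were under 1 FPKM in all 13 other labels, 137 reached 10 FPKM in another label and 80 had another label at least as high. The label with the highest level was frontal cortex for 36 (26.3%) and ileum for 31 (22.6%) of those 137 kidney genes. Of the 54 liver genes it was ileum for 11 (20.4%), rumen for 10 (18.5%) and lung for 9 (16.7%). Over all tested genes the highest of the 13 labels was frontal cortex for 16.9%, ileum for 8.10%, rumen for 5.33% and lung for 6.71%. Unlike the 137 and 54 genes, these did not have to reach 10 FPKM in another label, so the shares are not directly comparable. The difference between the groups was not tested.

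The low levels of one organ's genes in the other were uneven between libraries. For 29 genes of at least 1000 FPKM in liver and at least 100 times every other label, the median level in kidney was 145.3, 214.4, 31.8 and 148.2 parts in 1000000 (ppm) of the liver mean in male A, male B, the lactating cow and the dry cow. For 6 such kidney genes the median in liver was 626.7, 485.1, 1086 and 516.7 ppm of the kidney mean. The kidney of the lactating cow had the lowest trace of liver genes, with 12 of 29 listed at 0 against at most 1 in the other kidneys. This library also had the lowest relative depth of the 8, at 0.750, and an exact 0 can be a failed estimate. The part of depth in these values was not tested.

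That kidney library was also lowest for genes of unrelated tissues. Of 18 rumen genes chosen by the same thresholds, the median was 0.0 ppm there and 79.6 to 305.2 in the other kidneys. For 12 muscle genes it was 14.1 there and 186.3 to 263.9 in the other kidneys. Livers had medians of 89.6 to 622.2 for the rumen genes and 99.9 to 393.6 for the muscle genes. The part that such traces play in the largest differences was not tested. Without the lactating cow the sets on 3 scalings numbered 1089 and 1804 genes. Without her the difference of ENSBTAG00000017121 was 12.16 and that of ENSBTAG00000009212 was 11.82.

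Many genes of both sets had their highest level in neither organ. Of the 1097 liver genes, liver was the highest of all 15 labels for 455 (41.5%) and at least 4-fold above the 13 other labels for 276 (25.2%), while another label was more than 4-fold above liver for 376. Of the 1784 kidney genes, kidney was highest for 614 (34.4%), at least 4-fold above the others for 183 (10.3%) and exceeded more than 4-fold elsewhere for 425. After median-ratio scaling of all 47 libraries the liver numbers were 552, 341 and 229 and the kidney numbers 559, 169 and 485. On both scalings a larger share of the liver set than of the kidney set was enriched 4-fold. The sets were chosen for high levels in their own organ and were limited by different scales. These shares therefore describe the sets and do not compare the organs.

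Genes typical of other tissues fell unevenly between the organs. A gene was assigned to a label whose mean reached 1 FPKM and exceeded each of the other 12 labels 4-fold or more, without use of liver or kidney. The 361 frontal cortex genes had 7.76% in the liver set and 34.6% in the kidney set, beside 8.25% and 13.4% of all tested genes. Their median difference was -1.17 on the deposited scale, -0.65 after quantile normalization and -0.70 after median-ratio scaling, below that of all genes on each. The 55 muscle genes had 7.27% in the liver set and 34.5% in the kidney set, but their medians of -0.63, -0.05 and -0.04 lay above those of all genes. Genes of these groups are often low in both organs (the median frontal cortex gene stood at 0.826 FPKM in liver and 3.56 FPKM in kidney). Many could therefore be tested only through the organ in which they were higher, so the shares describe the groups and support no difference from all genes.

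Genes typical of spleen and lymphocytes had the larger share in the liver set. The 62 spleen genes had 25.8% in the liver set and 1.61% in the kidney set, and the 49 lymphocyte genes 24.5% and 4.08%. The median difference of the lymphocyte genes was 0.50, 1.14 and 1.05 on the deposited, quantile and median-ratio scales. That of the spleen genes was -0.04, 0.74 and 0.81, so its sign depended on the scaling. Lymphocyte values come from 1 library, of an animal that gave neither organ. The median lymphocyte gene stood at 2.59 FPKM in liver and 1.99 FPKM in kidney. Low genes could again be tested only through the organ in which they were higher, so these shares too describe the groups only. A larger share in the liver set was not particular to them, since adipose and ovary genes, given next, had it as well.

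Other groups were high in part in each organ, and the same limit holds for their shares. The 146 ileum genes had 33.6% in the liver set and 30.8% in the kidney set, and the 66 lung genes 33.3% and 24.2%. The 76 rumen genes had 19.7% and 27.6%, and the 28 dry mammary gland genes 25% and 25%. The 51 ovary genes had 37.3% and 23.5%, and the 45 adipose genes 35.6% and 15.6%. The medians of the adipose, ileum, lung, ovary, rumen and dry mammary gland groups were negative on the deposited scale and positive on both centred scales. The 22 to 60 genes of lactating mammary gland, uterus and heart had 11.7 to 13.8% in the liver set and 20 to 36.4% in the kidney set.

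**Figure D4:**
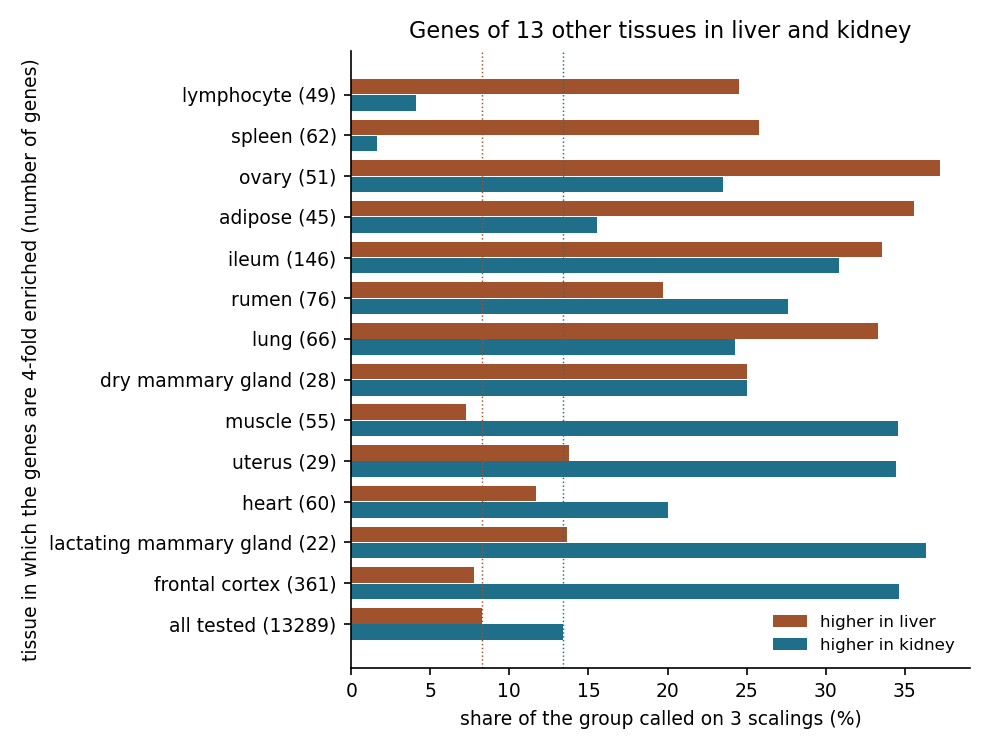
Share (x axis, percent) of the genes typical of each of 13 other tissue labels (y axis, number of genes in brackets) that were higher in liver (brown) or kidney (blue) on 3 scalings, with all tested genes at the bottom and as dotted lines. Spleen and lymphocyte genes show long brown and short blue bars, and frontal cortex and muscle genes the reverse.

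Calls were also counted by how widely a gene was expressed. Of 7889 genes with at least 1 FPKM in all 13 other labels, 3.58% were in the liver set and 7.50% in the kidney set. Of 248 genes under 1 FPKM in all 13 other labels, 98 (39.5%) were in the liver set and 68 (27.4%) in the kidney set. The second group had to reach 1 FPKM in liver or kidney to be tested, so its members were high in one of these organs by selection.

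A further group was common to the 2 organs. At least 4-fold above all 13 other labels in both liver and kidney stood 126 genes, which held 9.53 ± 0.566% of summed FPKM in liver and 4.45 ± 0.355% in kidney (SD, n = 4). Of these, 44 were higher in liver and 7 in kidney on 3 scalings, and 75 were in neither set. These are 34.9% and 5.56% of the group, beside 8.25% and 13.4% of all tested genes. On the deposited scale alone the counts were 45 and 26. Their differences ran from -4.27 to 9.01, and 52 of them had at least 100 FPKM in both organs. The most abundant of them in liver had a mean of 6549 FPKM there and 267.7 FPKM in kidney. The most abundant in kidney had 2809 FPKM there and 1708 FPKM in liver. With no gene names, it is not known here which metabolic pathways they belong to.

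The number of genes shown to differ little on the log2(FPKM + 1) scale depended on the scaling. On this scale a low gene can lie within 2-fold although its FPKM differ by more. Of the tested genes, 3014 had a mean under 3 FPKM over the 8 libraries. The 95% confidence interval of the difference lay within 2-fold for 3987 genes (30%) on the deposited scale, 7627 (57.4%) after quantile normalization and 7621 (57.3%) after median-ratio scaling. On all 3 it did so for 2605 genes (19.6%). Among the 566 genes with at least 100 FPKM in both organs, 158 were within 2-fold on all 3. In the liver set were 43 of the 566 (7.60%, beside 8.25% of all tested genes) and in the kidney set 17 (3.0%, beside 13.4%).

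Animals differed little within an organ. The median SD between animals was 0.21 in liver and 0.19 in kidney on the log2(FPKM + 1) scale. Among genes with a mean of at least 10 FPKM in the organ, 54 of 4778 in liver and 65 of 6981 in kidney had a range of at least 4-fold between animals. The median SD was 0.33 within liver for genes of the liver set and 0.24 within kidney for genes of the kidney set. Within single animals, 1073 to 1218 genes were at least 2-fold higher in liver and 4896 to 5967 in kidney on the deposited scale, with median differences of -0.90 to -0.76.

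The difference between organs was compared between the 2 males and 2 females by an interaction of organ and sex. No gene passed (0.0% of 13289 genes at an adjusted p under 0.05, limma). At an unadjusted p under 0.05 there were 605 genes, fewer than 5% of those tested. Of these, 324 had the larger liver minus kidney difference in males and 281 in females, a balance that turned to 252 and 356 after quantile normalization and 224 and 352 after median-ratio scaling. The smallest adjusted p was 0.1505. Without male A, male B, the lactating cow or the dry cow the interaction called 2, 0, 67 and 84 genes, in that order, where the lone animal of a sex is taken to vary like the others.

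The genes at the top of this ranking differed by animal pairs without passing the test. The highest in the direction of females had differences of 6.57 and 6.67 in male A and male B and 8.93 and 8.80 in the lactating and the dry cow, at 302.7 FPKM in liver on average. Its interaction was -2.25 ± 0.24 (SE, adjusted p = 0.1505 by limma). The highest in the direction of males had 4.19 and 4.83 in males and 1.84 and 2.23 in females, with an interaction of 2.47 ± 0.32 (SE, adjusted p = 0.1825 by limma). Each gene was higher in liver in all 4 animals. Kidney means were 0.0468 FPKM for the first gene and 0.0422 FPKM for the second, so their differences followed mainly their liver levels. With 2 animals per sex, one cow lactating and one dry, sex and the state of these animals cannot be told apart.

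A smaller number of genes differed between animals over both organs. The animal term of the model passed for 63 genes (0.474% of those tested, adjusted p under 0.05 by limma), and 33 of these also passed after quantile normalization. The same animal was lowest in both organs for 46 of the 63. Both males stood above both females in both organs for 24 of the 63, and both females above both males for 3. The share of all tested genes with either pattern is not given here. Whether the balance of 24 and 3 is unusual therefore cannot be judged. The animal term picks genes whose animals differ alike in both organs, so agreement between the organs is in part built into the choice. These counts describe the 63 genes and test nothing. In 5 genes 1 animal was under 1 FPKM in both organs while the other 3 had at least 1 FPKM and at least 10 times its level. That animal was male B for 3 genes, the lactating cow for 1 and the dry cow for 1.

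The first of these genes stood at 45.2, 0.0985, 47.2 and 42.4 FPKM in the livers of male A, male B, the lactating cow and the dry cow. Its kidney levels were 56.9, 0.379, 53.9 and 62.0 FPKM. Male B was low in both organs while the other 3 lay close together. The third stood at 52.0, 8.45, 0.0538 and 39.9 FPKM in liver and 32.8, 18.8, 0.229 and 34.2 FPKM in kidney. The lactating cow was lowest there, and male B lay between it and the others in both organs.

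The same animals were low for these genes in tissues that had no part in their choice. In 8 other tissues sampled from all 4 animals, the 5 genes gave 29 combinations of gene and tissue with at least 1 FPKM in the other 3 animals. The same animal was lowest in 27 and at least 10-fold lower than each other animal in 26. The exceptions to the first count were heart and muscle for the fifth gene. For the first gene, male B had 0.212 FPKM in spleen against 25.7 to 37.3 in the others, and for the third, the lactating cow had 0.504 FPKM in rumen against 216.9 to 299.1. Combinations of 1 gene share an animal and are not independent.

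**Figure D5:**
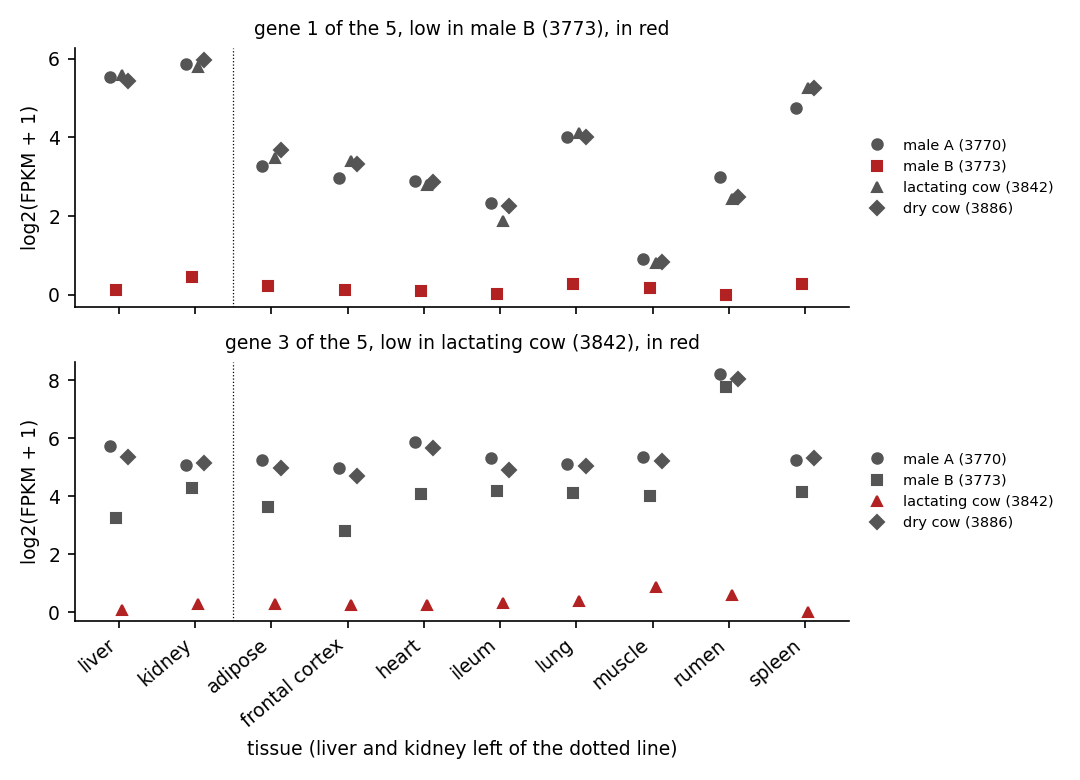
Level of the first and the third of the 5 genes low in 1 animal, as log2(FPKM + 1) on the y axis, in liver and kidney (left of the dotted line) and 8 other tissues; marker shape gives the animal. The red points, male B above and the lactating cow below, are lowest in all 10 tissues.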

How the data were processed

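Total RNA was sequenced as paired reads of 150 bases, per the labels' protocols. Cufflinks, STAR and Trimmomatic 0.39 are listed in the submitters' processing notes, with UMD3.1 as the assembly and no settings. The authors deposited 1 table of FPKM with 51 columns. Of these, 47 were matched to samples by name and 4 were left out. One muscle column has 1 letter more in its tissue code than the sample's title. No counts were used, so depth is known only in relative terms and no counting interval was computed. The labels used here name no sequencing batch. An exact 0 can be a failed estimate. FPKM of one gene and an overlapping or near-identical gene may not be separable.

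Values were taken as log2(FPKM + 1) for genes that reached 1 FPKM in 2 or more of the 8 libraries. Liver minus kidney, its interaction with sex and the animal term were fitted in R 4.3.3 by limma 3.58.1 (intensity trend, animal as a block, Benjamini-Hochberg, adjusted p under 0.05, and a difference of at least 1 for the organs). Organs are paired because the labels give them the same animal numbers. Deviations from the organ means correlated within male A, male B, the lactating cow and the dry cow at 0.28, 0.37, 0.25 and 0.09 across genes. The highest correlation with another animal was 0.08, -0.01, 0.28 and 0.07, so the lactating cow's liver matched another animal's kidney slightly better. Library measures were compared by exact permutation tests. Python 3.11.15, numpy 2.4.6, pandas 2.3.3, scipy 1.17.1 and matplotlib 3.10.9 were used. The fit was run on simulated data built from kidney levels for both organs, with changes added to some genes. That setting lacks the shift of the median gene between the organs, so it does not bear on the counts reported here.

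The comparison, the gene lists and the tests were chosen with earlier results of these data known. The genes to be named were the 10 of largest difference in each direction without overlap between organs, the 5 most abundant of each organ, the 5 of smallest p in each direction of the sex interaction, and members of symbol lists. The reference table, of assembly ARS-UCD2.0, held 0 Ensembl cattle identifiers, so lists, families and promoter motifs were not used. Ranks run over identifiers, of which the top 2 per direction are printed. The sets called on 3 scalings, the tissue groups and the animal term were chosen after seeing the data. Alternatives were other pseudocounts, filters, scalings and models, and leaving out each animal.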

Additional observations from a re-analysis of the deposited data

How the results depend on the processing

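Of 121 alternative settings run on 14 results, 108 left the result on its side of the threshold or within 1.5 times or 1 SD of its value, 13 moved it and 0 reversed it. Genes higher in liver, 1100 as reported, became 1911 with quantile normalization, 2003 with median-ratio scaling (chosen after seeing the data) and 1826 with no minimum difference. Genes higher in kidney, 5414 as reported, became 2844 with a pseudocount of 5, 2027 with quantile normalization, 1899 with median-ratio scaling and 9807 with no minimum difference. Without the replicate block the counts were 1088 and 5402, and 1085 and 1782 on 3 scalings; no call of a printed identifier changed. Leaving out each animal gave 1078 to 1122 and 5327 to 5702 genes, 1074 to 1119 and 1778 to 1818 on 3 scalings, 160 to 164 liver-restricted and 222 to 231 kidney-restricted genes, and 10-gene shares of 17.6 to 18.3% in liver and 6.66 to 7.02% in kidney. The 50 most abundant genes held 35.5% in liver and 17.2% in kidney. Genes with an interaction of organ and sex ran from 0 to 84 when 1 animal was left out, and the cause was not tested. The animal term called 35 genes after quantile normalization. The differences of the 4 printed identifiers ran from 11.77 to 13.44, 11.03 to 13.04, -12.62 to -10.03 and -13.25 to -8.57 over all settings, in the order of their description. Precision is limited by 4 animals, and by unknown depth.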
